A study of Mus musculus with 12 samples.

Results

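The feeding circuit examined here comprised 10 genes: the neuropeptide precursor genes Pomc, Cartpt, Npy and Agrp, the melanocortin receptor genes Mc3r and Mc4r, the neuropeptide Y receptor genes Npy1r, Npy2r and Npy5r, and the leptin receptor gene Lepr. Its members were the probes of the normalized table that carried 1 of these symbols, which gave 17 of the 56605 probes of the array and 10 of its 27308 gene symbols. Lepr had 6 probes, Npy1r and Npy2r had 2 each, and every other gene had 1. Hypothalamus RNA came from 12 male mice, 3 in each of 4 groups, aged 6 to 7 weeks in the labels. WT mice were wild-type littermates and KO mice were ASMT knockout homozygotes, both kept without training, whereas exercised WT mice (wild-type) and KE mice (ASMT knockout) went through a swimming program. All mice were on a C57BL/6 background, and the knockout line came from founders in which Cas9 had left a small deletion and was backcrossed for 3 generations. ASMT (gene symbol Asmt) makes melatonin in its last step, and the deletion is carried in every tissue, so a difference between genotypes need not arise in the hypothalamus. C57BL/6J mice are known to be born with little ASMT activity, which limits the wild-type groups as a melatonin-sufficient control. Training began at the labelled age in the methods, so the tissue of the exercised mice was taken later than that.

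The circuit senses the body's fat store and sets food intake. Neurons of the arcuate nucleus fall into opposing classes: those that make Pomc and mostly also Cartpt, whose product α-MSH lowers feeding, and those that make Agrp together with Npy, which raise it. Leptin from fat acts through LEPR on both classes, AgRP blocks the melanocortin receptors that α-MSH activates, and NPY acts through the Y1 and Y5 receptors on target neurons and through the Y2 receptor mostly as a brake on its own release.

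The deposited array annotation gives each probe as a 60-base sequence with its position in the mm9 build. Those printed here lie in coding sequence of the peptide genes and of Lepr, or across its end, and show which part of each transcript the signal reports. The capitals mark the stop codon of Pomc, the codons for the basic pair at which CART peptide is cut free, the codons for the glycine and basic pair that end the NPY peptide, an asparagine-leucine-threonine triplet in the part of LEPR outside the cell, the proline-asparagine-proline codons of Box 1, the stretch inside the cell where JAK2 binds, and the stop codon of the long signalling form of LEPR.
Pomc probe, chr12:3960413-3960472, plus strand: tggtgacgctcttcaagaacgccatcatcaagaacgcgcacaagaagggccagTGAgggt
Cartpt probe, chr13:100668967-100669956, minus strand, across an intron: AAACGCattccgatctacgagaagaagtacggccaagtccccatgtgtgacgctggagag
Npy probe, chr6:49773743-49777505, plus strand, across an intron: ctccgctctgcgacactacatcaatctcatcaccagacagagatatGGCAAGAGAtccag
Lepr brightest probe, chr4:101452666-101452725, plus strand: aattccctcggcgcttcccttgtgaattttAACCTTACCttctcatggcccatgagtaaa
Lepr Box 1 probe, chr4:101464615-101464674, plus strand: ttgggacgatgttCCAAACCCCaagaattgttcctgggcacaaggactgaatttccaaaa
Lepr long-form probe, chr4:101487858-101487917, plus strand, first 30 bases: gtgacttaactgtgTAAtctcatccaagaa
The Pomc probe therefore ends at the close of the β-endorphin coding stretch, and it reports the precursor transcript from which α-MSH is also cut.

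Pomc and Cartpt, which the same class of arcuate neurons mostly makes together, are shown with the bases just before their transcription start, from RefSeq on the GRCm38.p6 build. A window of 250 bases before the start was held for 8 of the 10 genes and was searched on both strands for TATAA, for the cyclic AMP response element TGACGTCA and for the STAT element TTCNNNGAA. Over all 32851 promoters of that length, 22.8% held TATAA, 1.55% held TGACGTCA and 7.02% held TTCNNNGAA. TATAA began 25 bases before the start of Pomc and TGACGTCA began 112 bases before the start of Cartpt, and none of the 3 motifs was found in the window of Npy, Lepr, Mc3r, Npy1r, Npy2r or Npy5r. These matches are shown in capitals and describe letters, not binding.
Pomc, chr12:3954795-3954944, plus strand: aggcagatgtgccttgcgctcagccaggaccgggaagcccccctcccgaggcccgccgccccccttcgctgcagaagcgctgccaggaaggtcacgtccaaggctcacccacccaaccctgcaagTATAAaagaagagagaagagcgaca
Cartpt, chr13:99900684-99900833, minus strand: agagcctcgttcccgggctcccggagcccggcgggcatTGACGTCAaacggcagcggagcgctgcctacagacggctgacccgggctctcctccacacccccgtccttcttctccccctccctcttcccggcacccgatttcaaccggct

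RNA was hybridized to single-color arrays with 59305 spots each, of which 61.6% to 67.9% were well above background, and values are log2 signals after quantile normalization. The arrays lay on 2 slides: WT replicates 1 to 3 with KO replicates 1 and 2 on slide 1, and KO replicate 3 with all exercised WT and KE arrays on slide 2. The first axis of a principal component analysis, with 48.5% of the variance, put every slide 1 array below 0 and every slide 2 array above it, and apart from KO replicate 3 swimming and slide cannot be told apart. KE versus exercised WT lies within slide 2, and the main differences that cross the slides are also given from a fit with slide as a block. With the block, KO versus WT rests on KO replicates 1 and 2, KE versus KO on KO replicate 3 alone, and the interaction is the KE minus exercised WT difference less that of KO replicates 1 and 2 minus WT. Blocked values of exercised WT or KE versus WT take the step between slides from KO replicate 3 against KO replicates 1 and 2, so they rest on that 1 mouse. Asmt had 1 probe, which was not well above background on any array, so the knockout could not be checked here. Of 8 markers of the arcuate nucleus, 6 were well above background on all 12 arrays. The log2 of the summed signal of all 8 was 14.3 to 14.5 in WT, 14.2 to 14.5 in KO, 14.2 to 14.4 in exercised WT and 14.3 to 14.5 in KE. However, Tac2, at 13.55 to 14.01, carried most of that sum. Others varied more between mice, with Ghrh from 11.20 to 12.04 and Tbx3 from 10.90 to 11.62. In these bulk samples, fewer cells of a type and less RNA per cell cannot be told apart.

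All 10 genes were measured in every group, each with its brightest probe well above background on 12 of 12 arrays. Of the 17 probes, 15 passed the filter on dim signals, which kept a probe if some group had it well above background in each of its 3 mice, and the other 2 were probes of Lepr. No member probe met the screening criterion of the study's methods, a fold change of at least 2 either way with an unadjusted p of at most 0.05, in any of 6 tests. The criterion was met by 0.227% of all 35230 tested probes in KO versus WT, 2.19% for exercised WT versus WT, 1.21% for KE versus KO, 0.25% for KE versus exercised WT, 2.74% for KE versus WT and 0.602% for the swimming by genotype interaction. Over the 10 brightest probes the fitted log2 fold changes ran from -0.39 to 0.44, and the lowest Benjamini-Hochberg adjusted p (limma) of any member probe was 0.0622. At an unadjusted p of at most 0.05, limma picked 0 of the 10 genes in KO versus WT, 1 when exercised WT was set against WT, 2 for KE versus KO, 2 for KE versus exercised WT, 3 for KE versus WT and 2 for the interaction, and the methods' t-test picked 1, 2, 2, 1 and 3 in the first 5 of these. That level was reached by 5.47%, 25.9%, 21.1%, 6.71%, 30.4% and 7.76% of all tested probes, so the members' shares of 0%, 10%, 20%, 20%, 30% and 20% lay near the background in exercised WT versus WT, KE versus KO and KE versus WT. The picks were Npy5r and Lepr in KE versus exercised WT, and Npy1r and Lepr in the interaction. After adjustment 7 probes, 0.0199% of those tested, had a p under 0.05 in KE versus KO and none did elsewhere, and no member was among them.

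Groups of 3 that did not overlap were counted as well. The values of 1 gene lay wholly higher and 0 wholly lower in KO versus WT, against 3.6% and 5.03% of all tested probes. The counts were 2 higher and 0 lower in exercised WT versus WT (15.5% and 22.1%), 1 higher and 4 lower in KE versus KO (6.13% and 15.4%), 1 in each direction for KE versus exercised WT (8.26% and 11.3%) and 2 higher and 1 lower in KE versus WT (16.5% and 27.6%). In the higher direction the counts of 1 or 2 of the 10 genes were too small to be set apart from the shares of all probes. The comparisons also share groups, and Lepr was among the higher genes in each comparison of KE. In the lower direction the share of members was above that of all probes only in KE versus KO. The genes there were Pomc, Cartpt, Mc3r and Npy5r. Scaling each array to its 75th percentile in place of quantiles put the median log2 fold change of all probes at 0.30 in exercised WT versus WT and 0.28 in KE versus WT, and then 5 and 4 of the 10 genes passed 0.05 after adjustment there, beside 51.3% and 45.7% of all tested probes.

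**Figure D1:**
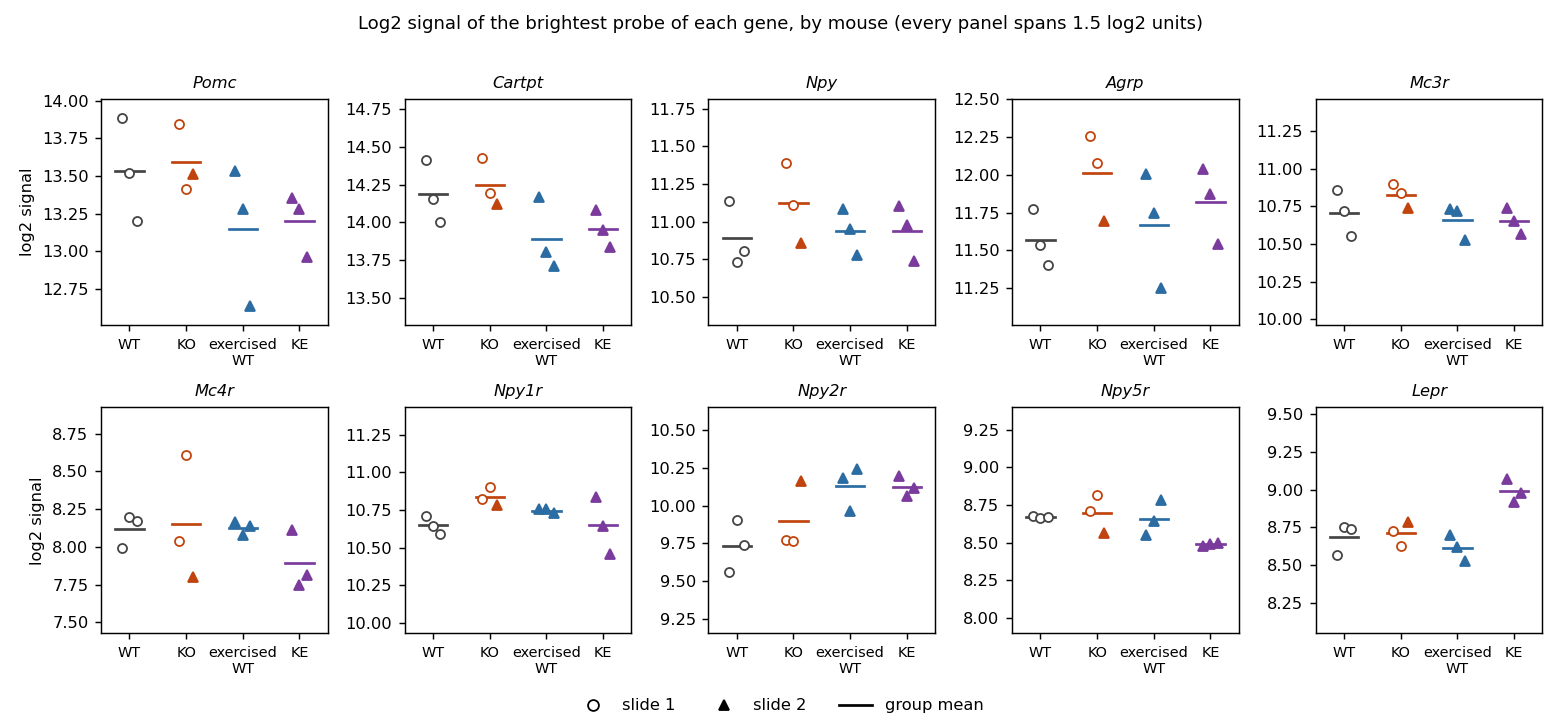
Log2 signal (y axis) of the brightest probe of each of the 10 genes in each mouse of the 4 groups (x axis), with slide 1 arrays as open circles, slide 2 arrays as filled triangles and group means as lines. All 3 KE values of Lepr lie above every other mouse, and the peptide genes spread widely within groups.

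Pomc, the precursor of α-MSH and β-endorphin, had log2 signals of 13.89, 13.52 and 13.20 in WT, 13.84, 13.42 and 13.51 in KO, 13.54, 13.28 and 12.64 in exercised WT mice and 13.35, 13.28 and 12.97 in KE mice. The sedentary groups had the higher means. In wild-type mice the swimmers overlapped with the sedentary group, and in knockout mice each KE value lay below each KO value. The log2 fold change was -0.39 ± 0.24 (SE, n = 3 and 3) in exercised WT versus WT (adjusted p = 0.326, limma) and -0.39 ± 0.24 in KE versus KO (adjusted p = 0.363), and blocking on the slide gave -0.27 ± 0.46 and -0.31 ± 0.36. Genotype differences were small beside the spread, 0.05 ± 0.24 in KO versus WT and 0.05 ± 0.24 in KE versus exercised WT. Exercised WT replicate 3, the mouse with the lowest Pomc, also stood highest in summed striatal markers. Its log2 of the summed signal of the 7 striatal markers with a probe was 15.9, against 15.1 to 15.5 on the other 11 arrays.

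Cartpt, which encodes the appetite-lowering peptide CART, followed the same order. Its log2 signals were 14.41, 14.16 and 14.00 in WT, 14.43, 14.20 and 14.12 in KO, 14.17, 13.80 and 13.71 in exercised WT mice and 14.08, 13.95 and 13.84 in KE mice. KE and KO values did not overlap, while exercised WT and WT values did. The difference was -0.30 ± 0.14 in exercised WT versus WT (adjusted p = 0.219) and -0.29 ± 0.14 in KE versus KO (adjusted p = 0.266), and -0.11 ± 0.26 and -0.17 ± 0.20 when blocked on the slide. In neither gene was a difference between genotypes in the response to swimming detectable: the interaction was -0.00 ± 0.34 for Pomc, with a 95% interval of -0.77 to 0.76, and 0.00 ± 0.20 for Cartpt, with an interval of -0.45 to 0.46.

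Agrp, which encodes the melanocortin receptor blocker, had log2 signals of 11.77, 11.53 and 11.40 in WT, 12.25, 12.08 and 11.70 in KO, 12.01, 11.74 and 11.25 in exercised WT mice and 12.04, 11.87 and 11.54 in KE mice. The KO mean was the highest of the 4, yet the KO and WT ranges overlapped through KO replicate 3. KO versus WT gave 0.44 ± 0.21, a 1.36-fold difference (adjusted p = 0.847), the widest of any brightest probe here, and its 95% interval ran from -0.03 to 0.92. Within slide 1, where KO replicates 1 and 2 were compared with WT, it was 0.60 ± 0.22, with an unadjusted p of 0.0244 and an adjusted p of 0.866 by limma. Npy, which the same arcuate neurons also make, had log2 signals of 11.14, 10.74 and 10.81 in WT, 11.39, 11.11 and 10.86 in KO, 11.08, 10.95 and 10.78 in exercised WT mice and 11.10, 10.98 and 10.74 in KE mice. KO versus WT was 0.23 ± 0.16 (adjusted p = 0.847) and 0.36 ± 0.16 within slide 1 (adjusted p = 0.906), and all groups overlapped. With swimming, neither gene passed the threshold: exercised WT versus WT was 0.10 ± 0.21 for Agrp and 0.05 ± 0.16 for Npy. KE versus KO was -0.19 ± 0.21 and -0.18 ± 0.16, with 0.12 ± 0.28 and 0.08 ± 0.20 against KO replicate 3 alone. Blocked on the slide, exercised WT versus WT was 0.57 ± 0.36 for Agrp and 0.44 ± 0.25 for Npy. Taken over the circuit, all 10 genes had a fitted KO versus WT difference above 0 in their brightest probe. The median was 0.09 against -0.01 over all tested probes, but none was past the threshold, and Lepr was at -0.01 within slide 1. In KO versus WT, Pomc, Cartpt, Mc4r, Npy5r and Lepr each changed sign under at least 1 alternative processing. The second Npy2r probe was at -0.03 ± 0.14 there. The share of all tested probes above 0 is not given.

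The 4 peptide genes varied together from mouse to mouse inside each group. In every group a single mouse was the highest for Pomc, Cartpt, Npy and Agrp alike: replicate 1 of WT, KO, exercised WT and KE. Exercised WT replicate 3 and KE replicate 3 were the lowest of their groups for all 4 genes, and in WT and KO the lowest place was split between 2 mice. The highest and lowest mouse of a group differed by 0.30 to 0.90 in exercised WT and by 0.24 to 0.50 in KE. The pooled within-group SD was 0.33 for Pomc and 0.29 for Agrp, at the 87.3rd and 83.5th percentile of all tested probes, whose median SD was 0.14. For comparison, the SD of Npy5r was 0.09 and that of Lepr 0.09. The order was not particular to the peptide genes. The receptor gene Mc3r, with an SD of 0.11, was highest in replicate 1 and lowest in replicate 3 of every group. The mean absolute difference of mean-centred signals was 0.09 between Npy and Mc3r and 0.11 between Npy and Agrp. The same mice were also the highest for a sum of markers of a neighbouring region. The log2 of the summed signal of 5 markers of the ventromedial nucleus was highest in replicate 1 and lowest in replicate 3 of each group. All 5 were well above background on every array. These values were 11.7 and 11.3 in WT, 11.8 and 11.5 in KO, 11.6 and 11.2 in exercised WT and 11.5 and 11.2 in KE. In KO, replicate 2 was nearly as low as replicate 3, at 11.54 against 11.52. The single markers did not all follow. Fezf1 held the order in every group, but Nr5a1 was highest in KE replicate 2, at 9.91. Gpr149 was highest in replicate 3 of exercised WT (7.70) and of KE (7.66). The arcuate markers Ghrh and Tbx3 had the same highest and lowest mouse in exercised WT and in KE. No other listed arcuate marker held that order in both groups, and Ghrh was highest in replicate 2 of WT and KO. Tac2 was instead highest in replicate 3 of exercised WT (13.88) and of KE (14.01). The order was not particular to the ventromedial list. Pdyn of the lateral hypothalamus list and Col23a1 of the tanycyte list also fell from replicate 1 to replicate 3 in every group. The sums of those lists did not hold that order. The suprachiasmatic sum was highest in replicate 1 of WT, exercised WT and KE, and the striatal sum in replicate 3 of these groups. The part of ventromedial or other tissue in these differences was not tested.

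The probe whose mean-centred log2 signal followed Pomc most closely over the 12 arrays was that of Prph, peripherin, an intermediate filament of neurons with long axons, with a mean absolute difference of 0.05. B230323A14Rik (0.07), Wif1 (0.10), Otop3 (0.10) and Vgll2 (0.10) came next. The gene nearest to Agrp was Npy, at 0.11, followed by Cited1 (0.12), Hdc, which makes histamine (0.13), C130093G08Rik (0.13) and Ghrh, made in other arcuate neurons (0.13). This likeness includes the slide, which all these probes share. Pituitary markers moved between mice as well. The log2 of their summed signal was 7.80 to 8.37 in WT, 8.32 to 11.7 in KO, 8.38 to 11.0 in exercised WT and 8.13 to 11.1 in KE. Of the 10 markers, 2 were well above background on all arrays and Gh, Ghrhr and Pou1f1 on none. Cga led the highest of those sums, and Tbx19, the factor of pituitary Pomc cells, was well above background on 1 array. The mouse with the highest pituitary sum of its group had the highest Pomc in KO and KE, the lowest in exercised WT and neither in WT, and the part of pituitary tissue in the Pomc values was not tested.

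Because the 4 genes shared so much of their spread, the difference between the feeding-raising pair (Agrp and Npy) and the feeding-lowering pair (Pomc and Cartpt) was also taken within each array, as the mean log2 signal of the first pair minus that of the second, with the WT mean set to 0. This measure was chosen after the values were seen and is given without a test. It was -0.06, -0.07 and 0.13 in WT, 0.32, 0.42 and 0.09 in KO, 0.33, 0.44 and 0.48 in exercised WT mice and 0.49, 0.44 and 0.37 in KE mice. Every exercised WT and KE mouse lay above every WT mouse, and KO replicates 1 and 2 lay above WT as well, whereas KO replicate 3 lay inside the WT range. The group means were 0.28 ± 0.17 (SD, n = 3) in KO, 0.41 ± 0.08 in exercised WT mice and 0.43 ± 0.06 in KE, against an SD of 0.12 in WT. All exercised WT and KE arrays lay on slide 2 and all WT arrays on slide 1, and the single sedentary mouse on slide 2 had 0.09. The exercised WT and KE ranges stayed above the WT range with 75th percentile scaling, with normexp background correction and in the authors' normalized table. However, the scaling factor of an array cancels in a difference taken within it, and the authors' table is quantile-normalized too. Neither is thus an independent check, and none of these settings separates swimming from the slide. Between single genes, Agrp minus Pomc was 0.39 ± 0.24 in KO, 0.49 ± 0.09 in exercised WT mice and 0.59 ± 0.06 in KE above WT, and Npy minus Cartpt was 0.17 ± 0.12, 0.34 ± 0.12 and 0.28 ± 0.07. Npy minus Pomc was 0.17 ± 0.17, 0.43 ± 0.31 and 0.38 ± 0.04. There the exercised WT range, from 0.19, overlapped with the WT range, up to 0.25. Agrp minus Cartpt was 0.38 ± 0.17, 0.40 ± 0.21 and 0.48 ± 0.14, and with normexp correction its exercised WT and WT ranges overlapped.

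**Figure D2:**
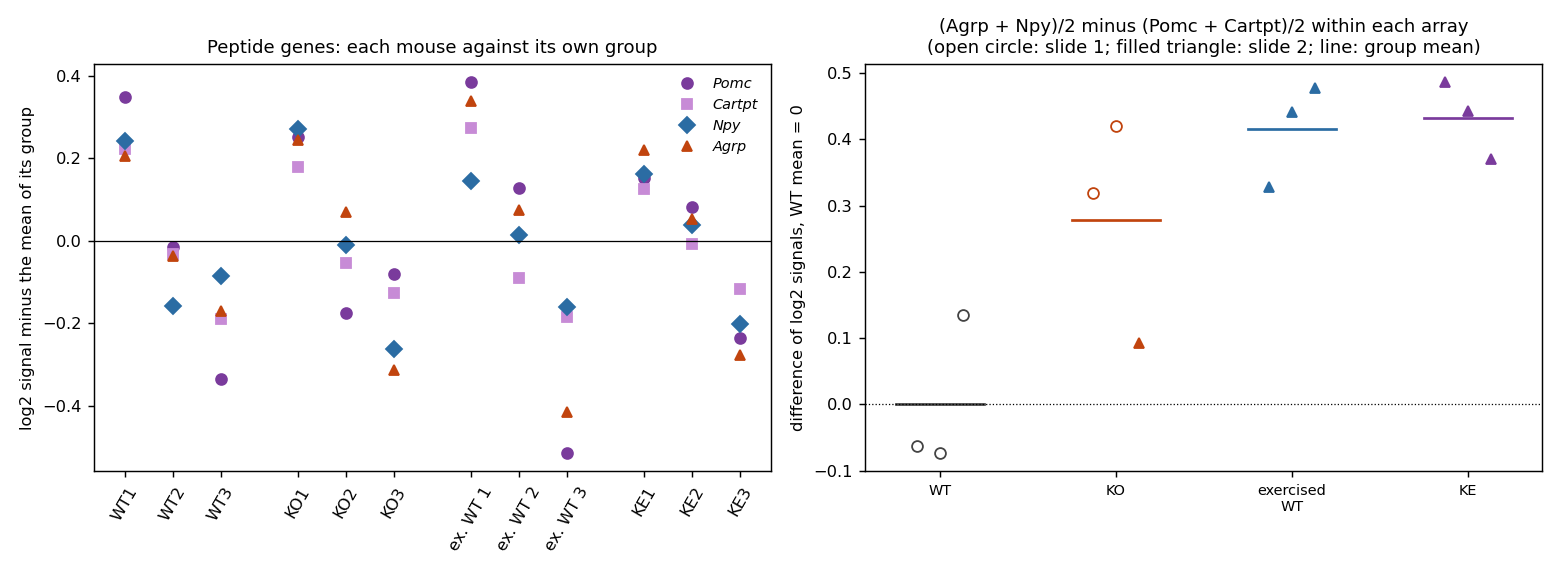
Left: log2 signal of the 4 peptide genes in each mouse minus the mean of its group (y axis), by mouse (x axis). Right: mean log2 signal of Agrp and Npy minus that of Pomc and Cartpt within each array (y axis, WT mean at 0), by group, with open circles for slide 1, triangles for slide 2 and lines for group means. Exercised WT and KE mice lie at 0.33 to 0.49, above all WT mice.

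Neither melanocortin receptor of this circuit passed the threshold in any comparison. Mc3r, expressed by arcuate neurons themselves, had log2 signals of 10.86, 10.72 and 10.55 in WT, 10.90, 10.84 and 10.74 in KO, 10.73, 10.72 and 10.52 in exercised WT mice and 10.74, 10.66 and 10.56 in KE mice. Its highest and lowest group means, KO and KE, differed by -0.17 ± 0.09 (adjusted p = 0.294), and their values did not overlap, but blocking on the slide gave -0.09 ± 0.13. Mc4r, the receptor through which α-MSH lowers feeding at its target neurons, had log2 signals of 7.99, 8.20 and 8.17 in WT, 8.04, 8.61 and 7.80 in KO, 8.16, 8.08 and 8.14 in exercised WT mice and 8.11, 7.74 and 7.82 in KE mice. KO replicate 2 stood highest and the groups overlapped in every pair. The fitted difference was -0.24 ± 0.18 in KE versus exercised WT (adjusted p = 0.834), with a 95% interval of -0.63 to 0.16.

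Among the neuropeptide Y receptors, Npy2r was higher on slide 2. Its log2 signals were 9.56, 9.90 and 9.74 in WT, 9.77, 9.77 and 10.16 in KO, 10.18, 9.97 and 10.24 in exercised WT mice and 10.19, 10.07 and 10.12 in KE mice, so that the sole KO mouse on slide 2 sat among the swimmers and the 2 on slide 1 sat among the WT mice. Exercised WT versus WT was 0.40 ± 0.13 (adjusted p = 0.108) and KE versus WT was 0.39 ± 0.13 (adjusted p = 0.0821), and blocking on the slide gave 0.00 ± 0.17 and -0.00 ± 0.17. Without KO replicate 3, KE versus KO was 0.36 ± 0.11 with an adjusted p of 0.0418, in a contrast wholly between slides in which 24.5% of all tested probes had an adjusted p under 0.05. KO replicate 3 exceeded the mean of KO replicates 1 and 2 by 0.39. A second Npy2r probe, at 6.12 to 6.60, gave -0.03 ± 0.14 in exercised WT versus WT and had the opposite sign to the first in 4 of 6 tests.

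Npy1r, the Y1 receptor, had log2 signals of 10.71, 10.65 and 10.59 in WT, 10.83, 10.91 and 10.78 in KO, 10.75, 10.75 and 10.73 in exercised WT mice and 10.84, 10.65 and 10.46 in KE mice. All 3 KO values lay above all 3 WT values, and so did all exercised WT values. KO versus WT was 0.19 ± 0.09 (adjusted p = 0.847), and this was the gene that the methods' t-test picked there. The fitted difference with swimming was above 0 in wild-type and below 0 in knockout mice, 0.10 ± 0.09 in exercised WT versus WT and -0.19 ± 0.09 in KE versus KO, and the interaction was -0.29 ± 0.12 (adjusted p = 0.620). Its second probe, which targets another stretch of the transcript, had log2 signals of 7.83, 7.97 and 7.69 in WT, 7.96, 7.93 and 7.82 in KO, 7.93 and 8.07 in exercised WT mice and 7.46, 7.63 and 7.48 in KE mice, with exercised WT replicate 3 dropped because its spot was marked as an outlier. Every KE value lay below every other value. There the difference was -0.48 ± 0.10 in KE versus exercised WT (n = 3 and 2, adjusted p = 0.526), -0.38 ± 0.09 in KE versus KO (adjusted p = 0.127) and -0.31 ± 0.09 in KE versus WT (adjusted p = 0.0680), and the interaction was -0.55 ± 0.13 (adjusted p = 0.477). Both Npy1r probes thus had a negative interaction, and within slides it was -0.31 ± 0.13 and -0.59 ± 0.13. Against KO replicate 3 alone, KE was at -0.13 ± 0.12 in the brightest and -0.30 ± 0.12 in the second probe, and KE versus WT in the second probe was -0.18 ± 0.15 with the slide blocked. The second probe depended on the outlier spot: with outlier spots kept, the differences were -1.52 ± 0.67 in KE versus exercised WT (adjusted p = 0.748), 1.22 ± 0.67 in exercised WT versus WT and -1.60 ± 0.95 in the interaction, and the authors' table gave nearly the same values.

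Npy5r, the Y5 receptor, had log2 signals of 8.68, 8.66 and 8.67 in WT, 8.71, 8.82 and 8.56 in KO, 8.55, 8.64 and 8.78 in exercised WT mice and 8.48, 8.49 and 8.50 in KE mice. KE mice had the lowest 3 values of the 12 and did not overlap with any other group. The KE difference was -0.21 ± 0.07 from KO (adjusted p = 0.182), -0.17 ± 0.07 from exercised WT (adjusted p = 0.744) and -0.18 ± 0.07 from WT (adjusted p = 0.140). Blocking on the slide, KE versus KO was -0.07 ± 0.09 and KE versus WT was 0.02 ± 0.11, while the interaction moved from -0.20 ± 0.11 to -0.26 ± 0.09 (adjusted p = 0.384). Without KO replicate 3, KE versus KO was -0.28 ± 0.07 with an adjusted p of 0.0194, in a contrast wholly between slides in which 24.5% of all tested probes had an adjusted p under 0.05.

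Lepr set KE apart from every other mouse in its brightest probe, which reports coding sequence for the part of the receptor outside the cell. Its log2 signals were 8.56, 8.75 and 8.74 in WT, 8.73, 8.63 and 8.79 in KO, 8.70, 8.62 and 8.52 in exercised WT mice and 9.07, 8.92 and 8.98 in KE mice. The WT, KO and exercised WT means lay between 8.61 and 8.71, and every KE mouse lay above all 9 other mice. KE exceeded exercised WT by 0.38 ± 0.08, a 1.30-fold difference with a 95% interval of 0.21 to 0.54 (unadjusted p = 0.000563, adjusted p = 0.435, limma), and these 6 arrays shared a slide. It exceeded KO by 0.28 ± 0.08 (adjusted p = 0.149) and WT by 0.31 ± 0.08 (adjusted p = 0.0622, the lowest among the members). KE versus WT lies wholly across the slides, and it was 0.20 ± 0.13 with the slide blocked. In a fit of only these groups its adjusted p was 0.0431, and 17.6% of all tested probes were then under 0.05. Against KO replicate 3 alone, the sedentary knockout mouse on the same slide, KE was higher by 0.21 ± 0.10 (adjusted p = 0.606). With that array left out, KE versus KO was 0.31 ± 0.08 with an adjusted p of 0.0240, a level that 24.5% of all tested probes then reached. In wild-type mice the swimming difference was -0.07 ± 0.08, or -0.18 ± 0.13 with the slide blocked, and the interaction was 0.35 ± 0.11 (adjusted p = 0.551) and 0.38 ± 0.11 within slides (adjusted p = 0.324).

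The other Lepr probes did not follow. The Box 1 probe had log2 signals of 4.73, 4.56 and 4.33 in WT, 4.67, 4.85 and 5.19 in KO, 5.01, 5.21 and 4.14 in exercised WT mice and 4.78, 4.18 and 4.36 in KE mice, and was well above background on 9 of 12 arrays. Its KE versus exercised WT difference was -0.35 ± 0.27 and its interaction -0.71 ± 0.38, opposite in sign to the brightest probe. The same held for the remaining 2 tested probes: of 3 other tested probes, 3 had the opposite sign in exercised WT versus WT, KE versus KO, KE versus exercised WT and the interaction, 2 in KE versus WT and 0 in KO versus WT. These probes were dim, at log2 signals of 4.14 to 6.00, with within-group SDs of 0.29 to 0.41 against 0.09 for the brightest. None of their differences passed the threshold, and averaging the tested Lepr probes gave -0.13 ± 0.15 in KE versus exercised WT. The long-form probe was well above background on 2 of 12 arrays, 1 WT and 1 KE, so the form that signals through STAT3 could not be compared between groups here.

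**Figure D3:**
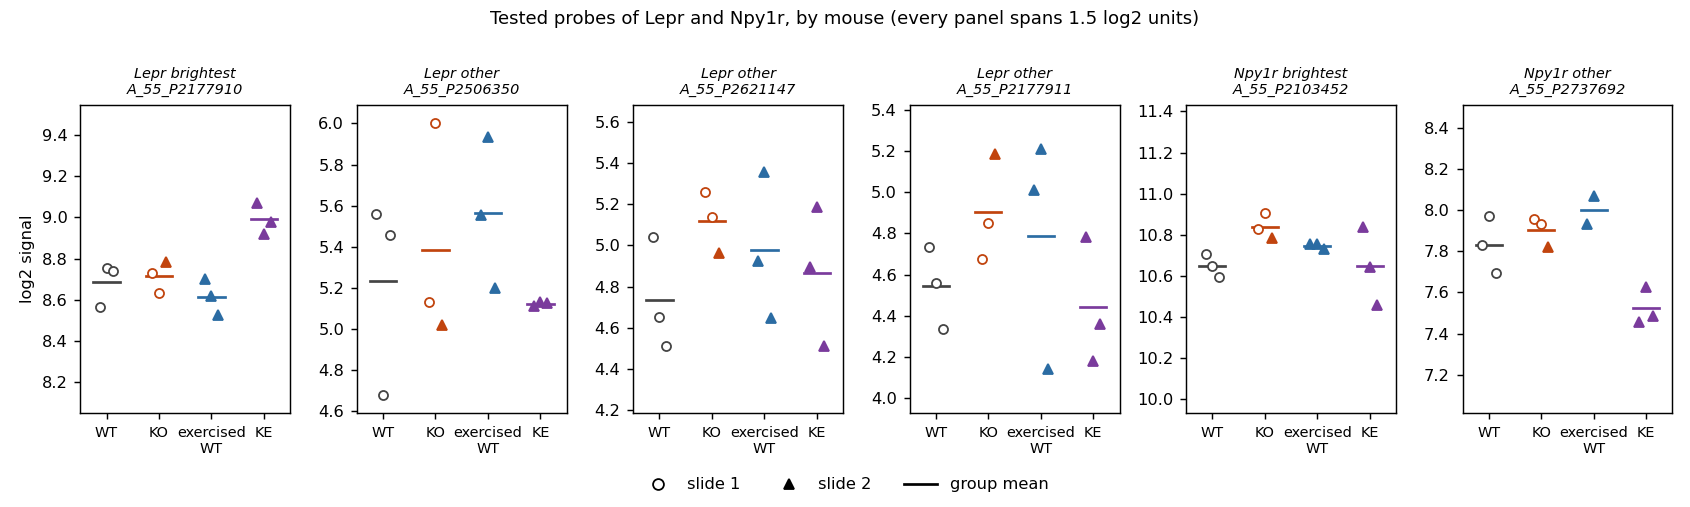
Log2 signal (y axis) of the 4 tested Lepr probes and both Npy1r probes in each mouse, by group (x axis), with slide 1 arrays as open circles, slide 2 arrays as triangles and lines for group means. KE mice stand highest in the brightest Lepr probe and lowest in the second Npy1r probe, which lacks exercised WT replicate 3, while the dim Lepr probes overlap between most groups.

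**Figure D4:**
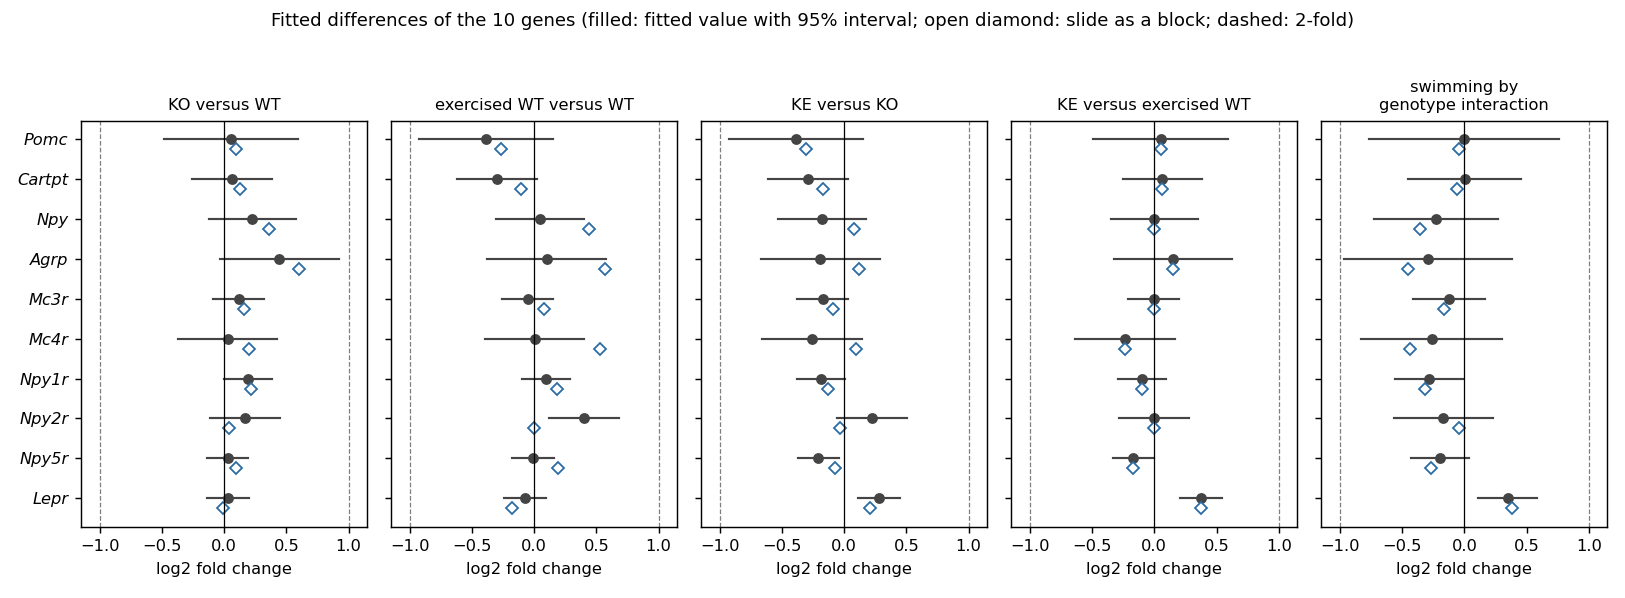
Fitted log2 fold change (x axis) of the brightest probe of each gene (y axis) in 4 comparisons and the interaction, as filled points with 95% intervals, and the value with the slide as a block as open diamonds. No point reaches the dashed lines at a 2-fold change, and the intervals of Lepr exclude 0 in KE versus KO, KE versus exercised WT and the interaction. So do those of Npy5r in KE versus KO and KE versus exercised WT, Npy2r in exercised WT versus WT and Npy1r in the interaction.

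Genes that work beside the members were taken from lists of the pathway: 60 genes, 58 with a probe and 53 tested. At an unadjusted p of at most 0.05, none of the 53 differed in KO versus WT, 2 were higher and 4 lower in exercised WT versus WT, 7 lower in KE versus KO, 1 higher in KE versus exercised WT, and 3 higher and 12 lower in KE versus WT, or 0%, 11.3%, 13.2%, 1.89% and 28.3% of the 53. Over all tested probes the higher and lower shares were 2.38% and 3.09%, 11.7% and 14.2%, 8.1% and 13%, 2.17% and 4.55%, and 12.6% and 17.9% in the same order, and 3.58% and 4.18% in the interaction. None reached an adjusted p under 0.05 (limma), and the interaction picked 0. The screening criterion was met by Sim1 alone, the transcription factor of paraventricular neurons that carry Mc4r, in exercised WT versus WT and KE versus WT. Sim1 had log2 signals of 4.22, 5.08 and 4.10 in WT, 4.10, 4.15 and 7.23 in KO, 6.60, 6.62 and 6.21 in exercised WT mice and 6.77, 6.44 and 6.50 in KE mice. All values above 6 were on slide 2, sedentary KO replicate 3 included, and the exercised WT versus WT difference of 2.01 ± 0.70 turned to -1.10 ± 0.43 when the slide was blocked.

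Downstream of LEPR, 11 of 12 listed signalling genes were tested. In KE versus KO, 4 of the 11 were lower at an unadjusted p of at most 0.05 and none higher, while 13% of all tested probes were lower at that level, and with the slide blocked 0 of the 11 were (limma). The list median was -0.19 against -0.04 over all tested probes, and 0.00 with the slide blocked. The named members of that group were Irs2, an insulin receptor substrate that leptin also engages, at -0.44 ± 0.13 (adjusted p = 0.156), and Foxo1, which represses Pomc and promotes Agrp transcription, at -0.34 ± 0.10 (adjusted p = 0.161). Irs2 had log2 signals of 13.52, 13.53 and 13.07 in KO and 12.88, 12.95 and 12.95 in KE mice, and Foxo1 had 11.50, 11.59 and 11.14 against 11.11, 11.02 and 11.07. KO replicate 3 lay nearer to KE than the other KO mice in both, and blocking on the slide gave -0.14 ± 0.12 and -0.07 ± 0.08. Within slide 2, Irs2 was -0.28 ± 0.13 in KE versus exercised WT (adjusted p = 0.748), its KE and exercised WT values did not overlap, and Irs1 was -0.12 ± 0.06 (adjusted p = 0.775). Ptpn2, a phosphatase that dampens the signal, was -0.07 ± 0.07 in KO versus WT and -0.12 ± 0.07 in exercised WT versus WT, or -0.03 ± 0.07 and 0.00 ± 0.11 with the slide blocked.

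The enzymes that cut and finish the peptides gave 2 genes lower in exercised WT versus WT and 1 in KE versus KO at the unadjusted level. Of 7 tested, Pam, which amidates α-MSH and NPY, was -0.34 ± 0.12 in exercised WT versus WT (adjusted p = 0.124) and -0.30 ± 0.12 in KE versus KO (adjusted p = 0.198), and Pcsk2, which cuts POMC-derived peptides on the way to α-MSH, was -0.22 ± 0.08 in exercised WT versus WT (adjusted p = 0.125). Blocking on the slide gave, for exercised WT versus WT, 0.04 ± 0.16 for Pam and -0.10 ± 0.13 for Pcsk2, and for KE versus KO -0.05 ± 0.12 for Pam. Scg5, the chaperone of PCSK2, was -0.11 ± 0.05 in KE versus exercised WT (adjusted p = 0.747). Of 6 tested melanocortin accessory genes, Mrap2, a partner of MC4R, was -0.11 ± 0.07 in exercised WT versus WT and 0.06 ± 0.10 blocked on the slide, and Sdc3, a cell surface proteoglycan that presents AgRP, was 0.33 ± 0.14 there (adjusted p = 0.170) and -0.24 ± 0.11 blocked on the slide. Mrap was well above background on 6 of 12 arrays, and no difference is given for it.

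Of 10 tested transcription factors of the arcuate nucleus, Otp, needed for AgRP neurons, was -0.29 ± 0.13 in exercised WT versus WT (adjusted p = 0.182) and Prdm12, needed for Pomc expression, was -0.23 ± 0.08 in KE versus KO (adjusted p = 0.180). Of 10 tested feeding receptors of these neurons, Calcr, a calcitonin receptor that amylin also uses, was -0.21 ± 0.08 in exercised WT versus WT (adjusted p = 0.147), and Htr2c, the serotonin receptor of POMC neurons, was -0.17 ± 0.11 in KO versus WT (adjusted p = 0.847). Among 7 genes of neurons that receive melanocortin input, Nos1, which makes nitric oxide, was 0.45 ± 0.18 in KE versus exercised WT (adjusted p = 0.721), Bdnf, a neurotrophin that acts on feeding downstream of MC4R, was -0.33 ± 0.15 in KE versus KO (adjusted p = 0.239), and its receptor gene Ntrk2 was -0.21 ± 0.08 there (adjusted p = 0.182). Blocked on the slide, these values were -0.37 ± 0.23 for Otp, -0.18 ± 0.11 for Prdm12, -0.08 ± 0.14 for Calcr, -0.36 ± 0.22 for Bdnf and -0.03 ± 0.06 for Ntrk2. The gut and pancreas peptides of the NPY family, Pyy and Ppy, were not well above background on any array.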

How the data were processed

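Per array, the authors deposited scanner output, with spot intensity after background subtraction and detrending by Agilent Feature Extraction 10.7.1.1, and a table of log2 values quantile-normalized over all arrays in GeneSpring. The deposited tables of comparisons hold fold changes and p-values and 24 columns of values per sample, and were not used. Here, outlier spots were left out, log2 processed signals of replicate spots were averaged and quantile-normalized, and limma 3.58.1 (R 4.3.3) was fitted to 35230 probes with a mean for each of 4 groups and Benjamini-Hochberg adjustment over all of them. Figures used Python with matplotlib. Samples were grouped by their labels. Labels give no litter or cage, so p-values measure the spread between these mice. The number of arrays limits the precision. In simulated data with independent noise and no slide effect, 200 of 35201 probes were changed by more than 2-fold. Between 161 and 185 of these, by comparison, reached an adjusted p under 0.05 (limma). Recovery of smaller differences, such as those of the members, was not simulated. The named genes are the 10 members through their brightest probe, Asmt, and pathway genes past the criterion or among the 2 lowest p-values of their list in a comparison. Likeness to Pomc and Agrp was the mean absolute difference of mean-centred signals over 12 arrays. The members and lists were chosen with earlier results of these data known. Alternatives were 75th percentile scaling, normexp correction with an offset of 50, the authors' table, other filters, the methods' t-test, only the groups compared, a slide block, a replicate block, keeping outlier spots, averaging the probes of a gene, and leaving out each array. Probe positions are mm9. The slide was read from the scanner output.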

Additional observations from a re-analysis of the deposited data

Results flagged for a closer look

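Among the 15 tested probes of the circuit, 3 differences in the response to swimming between genotypes reached an unadjusted p of at most 0.05 in the interaction term of limma, and none held after adjustment over all tested probes. For the brightest Lepr probe the interaction was 0.35 ± 0.11 (SE) on the log2 scale, with an adjusted p of 0.551. For the brightest Npy1r probe it was -0.29 ± 0.12 (adjusted p = 0.620), and for the second Npy1r probe it was -0.55 ± 0.13 (adjusted p = 0.477), where exercised WT rested on 2 mice. Across all tested probes 7.76% reached that level.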

How the results depend on the processing

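In no alternative did the brightest probe of a member gene meet the screening criterion, so those 6 counts stayed at 0. Of the other probes, the second Npy1r probe met it in KE versus exercised WT with outlier spots kept and in the authors' table (-1.52 in both), and the Lepr Box 1 probe met it in the interaction without exercised WT replicate 3 (-1.03). The number of member genes with an adjusted p under 0.05, 0 in the reported fit, was above 0 in 5 cases. With 75th percentile scaling it was 5 in exercised WT versus WT (Npy, Mc3r, Npy1r, Npy2r and Npy5r, all higher) and 4 in KE versus WT (Agrp, Npy1r, Npy2r and Lepr, all higher), where 51.3% and 45.7% of all tested probes passed. That scaling moved the median of all tested probes to 0.30 and 0.28 on the log2 scale; taken relative to the median of all probes, 7 of 60 member values differed in sign between the scalings. In KE versus WT it was 1 by the methods' t-test (Npy5r, lower; 14% of all tested probes) and 3 in a fit of only the groups compared (Npy2r, Npy5r and Lepr; 17.6% of all). Without KO replicate 3, the only sedentary array on slide 2, it was 3 in KE versus KO (Npy2r at 0.36, Npy5r at -0.28 and Lepr at 0.31; 24.5% of all), and leaving out single arrays otherwise gave 0, a range of 0 to 3 in that comparison. Of 1060 values of single genes under alternatives, 88 changed sign with no call in either fit, 13 of them under a slide block, 16 under 75th percentile scaling and 4 with probes averaged per gene, all 4 of Lepr. Replicate numbers were not shown to pair the mice: deviations of same-numbered arrays correlated between -0.19 and 0.24 over 18 pairs, and an array was most like its own number in 14 of 36 comparisons with another group. With the replicate block, the counts of member genes past the criterion or with an adjusted p under 0.05 stayed at 0, and 3 of 10 genes in KO versus WT and 7 of 10 in KE versus KO had an unadjusted p of at most 0.05, as did 6.25% and 20.9% of all tested probes. With 3 arrays per group, the standard errors of the brightest probes ran from 0.07 for Npy5r to 0.24 for Pomc on the log2 scale in comparisons of 2 groups, which limits what could be detected.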
